A study of Canis lupus familiaris with 10 samples.

Results

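The 10 genes described here encode the core of the transforming growth factor β (TGF-β) pathway: the ligands TGFB1, TGFB2 and TGFB3, the receptors TGFBR1, TGFBR2 and TGFBR3, and the intracellular mediators SMAD2, SMAD3, SMAD4 and SMAD7. They were chosen by name from the pathway, with earlier results of these data known, and each matched a row of the deposited table of 23266 gene symbols. Of these genes, 9 had a normalized read count of at least 10 in at least 5 libraries and were tested, as were 12397 genes of the whole table, while SMAD3 remained below this level and is given by its values without a test.

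Cells secrete TGF-β in a latent form that is bound to the matrix and must be activated before it can reach its receptors. The active ligand binds the type II receptor TGFBR2, which phosphorylates the type I receptor TGFBR1, and TGFBR1 in turn phosphorylates SMAD2 and SMAD3, which enter the nucleus together with SMAD4. In skin the pathway is known for its part in matrix production, for restraining lymphocytes and for keeping Langerhans cells, the dendritic cells of the epidermis, in place.

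The libraries came from canine cutaneous histiocytoma (CCH), a benign tumor of Langerhans cells in dogs that regresses on its own, and were made from archived tissue fixed in formalin and embedded in paraffin (FFPE). They were read with QuantSeq 3′ RNA-Seq, which sequences a short fragment near the polyadenylated end of each transcript. The early CCH group held 5 tumors of histological group 1, from dogs aged 0.5 to 5 years (age given for 4 of them). The late CCH group held 5 tumors of histological group 3, described in the labels as enriched in lymphocytes, from dogs aged 1.5 to 9 years. The tumors had been excised from different pet dogs, and the libraries were made from whole tumor sections with the neighboring tissue removed.

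Each library held between 2973125 and 4439709 reads assigned to genes, with fewer in late than in early CCH (exact two-sided permutation p = 0.0238). RNA quality, given in the labels as the DV200 percentage, moved with stage as well, with 68.5% ± 2.46 in early and 73.2% ± 2.09 in late CCH (SD, n = 5 each, exact two-sided permutation p = 0.0238). According to the study's sample list, no RNA extraction batch held tumors of both stages and the late tissue blocks were the older ones, so that stage, batch and storage cannot be told apart in any difference given here. The tissue was checked with markers of several cell types. Of 13 Langerhans and dendritic cell markers analysed, 10 were tested and 8 of these were lower in late CCH. All late values lay below all early values for 4 of the 10 and above them for 1. The summed normalized read count of the list was 3183 to 5642 in early and 2487 to 3165 in late CCH. CD86 alone was counted at 1829 to 2582 in early and 1028 to 1405 in late CCH, a large part of this sum. CD207, the defining gene of Langerhans cells, had no row under its symbol and was not analysed here. ID2, a factor that these cells need, was at 0 in 5 of 10 libraries, with 14 reads over all early and 3 over all late libraries. Whether the annotation missed reads of ID2 was not tested. All 12 T cell markers were higher in late CCH, with a sum of 82.8 to 2527 in early and 3913 to 6583 in late libraries, and CD5 and TRAT1 were at 0 in at least 1 library. The 5 regulatory T cell, 6 cytotoxic lymphocyte and 6 B cell markers were also all higher in late CCH, as were 4 of 6 smooth muscle markers. Of 7 keratinocyte markers, 1 was higher and 6 were lower in late CCH, with sums of 867 to 15541 in early and 644 to 7890 in late libraries. Macrophage markers (8 of 9 tested higher in late CCH) summed to 1381 to 9802 in early and 5689 to 12533 in late CCH. In such bulk tissue, fewer cells of a type and less RNA per cell cannot be told apart, and the part of these cell types in the values below was not tested.

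Values are normalized read counts, the reads of a gene divided by a single size factor per library. Because the method yields about 1 fragment per transcript whatever the transcript's length, values were not divided by length. A gene's count also depends on how fully its 3′ end is annotated, which the authors meant to offset by counting on extended genes. The orders below are therefore of read counts, and whether transcript levels follow them was not tested. In early CCH the mean level was highest for TGFBR2, followed by SMAD2, TGFBR3, TGFBR1, SMAD4, TGFB1, SMAD7, TGFB2, TGFB3 and SMAD3. The ranges of the 5 early libraries did not overlap between TGFBR2 and SMAD2, TGFBR1 and SMAD4, TGFB1 and SMAD7, or SMAD7 and TGFB2, while all other neighbors in this order overlapped. In late CCH the order was TGFBR2, TGFBR3, SMAD2, SMAD4, TGFBR1, TGFB1, SMAD7, TGFB3, TGFB2 and SMAD3, and only TGFBR2 and TGFBR3 at the top and TGFB2 and SMAD3 at the bottom had ranges that did not overlap with their neighbor. SMAD2 lay above TGFBR3 in 5 of 5 early and below it in 5 of 5 late libraries, and the same held for TGFBR1 and SMAD4. The means of TGFB2 and TGFB3 were nearly equal in late CCH, and TGFB3 was the higher of the pair in only 1 of 5 late libraries, late library 3.

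**Figure D1:**
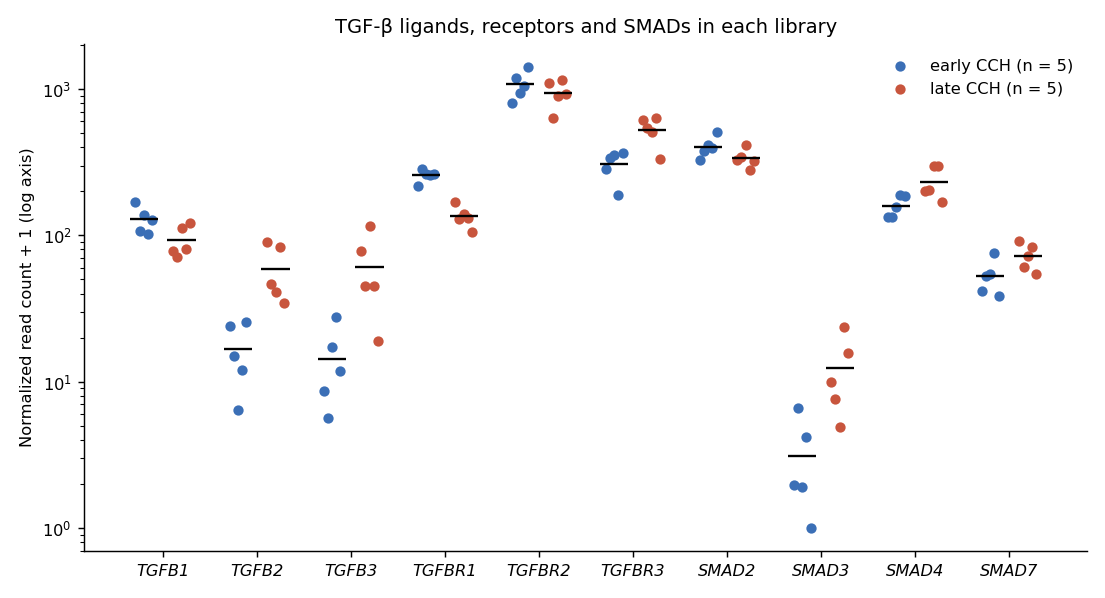
Normalized read count + 1 (log axis) of each of the 10 genes in the 5 early (blue) and 5 late (red) libraries, each point a library and each line the mean of a stage. TGFBR2 lies highest and SMAD3 lowest in both stages, the late points of TGFB2 lie above and those of TGFBR1 below all early points, and the other genes overlap.

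The comparison between late and early CCH asked which of these genes differ between the stages of the tumor. Differences are given as log2 fold change (log2FC), always late minus early, on the scale of log2 of the normalized read count + 1, which understates the change of low genes. To be called, a gene needed a log2FC of at least 1 in size together with a p of at most 0.05 after Benjamini-Yekutieli (BY) adjustment. By this rule limma called 0 of the 9 genes tested, against 2.17% of all genes tested (1.06% higher and 1.11% lower in late CCH). edgeR called 0 of 9 as well, beside 1.43% of all genes (0.653% higher and 0.774% lower). DESeq2, the tool the study itself used with BY adjustment, called 2, TGFB2 and TGFB3, both higher, beside 6.54% of all genes (3.88% higher and 2.67% lower). The study's calls used log2FC values with shrinkage, which is stronger for genes with few reads and was not applied here. With the less strict Benjamini-Hochberg (BH) adjustment limma called the same 2 genes, beside 9.04% of all genes. At an unadjusted p of at most 0.05, 4 genes were higher (TGFB2, TGFB3, TGFBR3 and SMAD4) and 2 lower (TGFB1 and TGFBR1) in late CCH, which makes 6 of 9 where 30.9% of all genes tested passed this level. The median log2FC was 0.47 over the 9 genes and -0.004 over all genes tested. The late values did not overlap with the early ones for 2 of 9 genes (TGFB2 and TGFBR1), as for 12% of all genes tested, of which 5.91% lay above and 6.05% below the early values. When no fold was asked for, 1 of 9 (TGFBR1) passed the BY-adjusted p, beside 2.44% of all genes (1.11% higher and 1.34% lower).

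**Figure D2:**
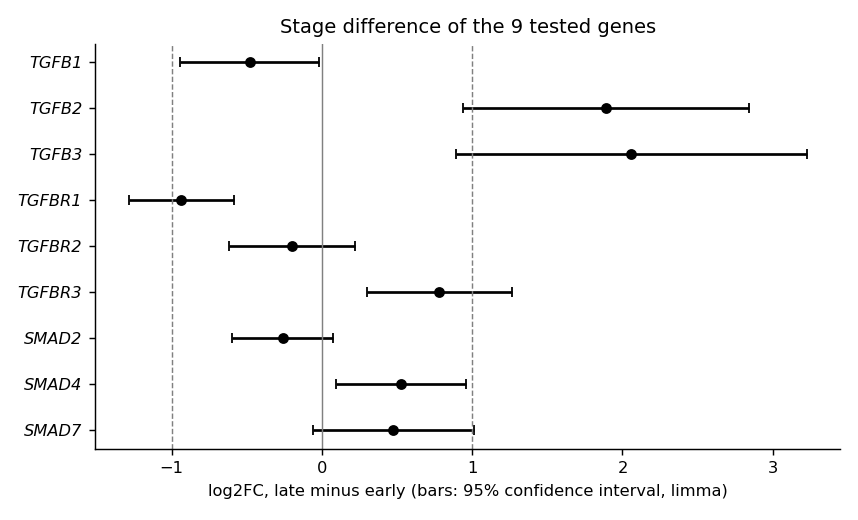
log2FC (late minus early) of the 9 tested genes with 95% confidence intervals from limma, with dashed lines at the threshold of 1 in either direction. TGFB2 and TGFB3 lie farthest to the right at 1.89 and 2.06 with the widest intervals, and TGFBR1 lies farthest to the left at -0.94.

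TGFB1 encodes the ligand isoform that most immune cells make. Its normalized read counts were 167, 106, 137, 102 and 127 in early libraries 1 to 5 and 77.6, 70.4, 110.4, 79.8 and 119.6 in late libraries 1 to 5. Late libraries 1, 2 and 4 lay below all early libraries, and late libraries 3 and 5 lay within the early range. The mean was 128 ± 26.2 in early and 91.5 ± 21.9 in late CCH (SD, n = 5 each), a log2FC of -0.48 ± 0.21 (SE) that did not pass the adjustment (limma, BY-adjusted p = 1, unadjusted p = 0.0418).

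TGFB2 encodes an isoform made mainly by epithelial, stromal and developing tissues, and it depends on the coreceptor TGFBR3 for efficient binding. It was counted at 22.8, 14, 5.43, 11 and 24.7 in early and at 89.5, 45.7, 39.7, 82.8 and 33.6 in late libraries 1 to 5. All 5 late values lay above all early values, with the smallest gap between late library 5 and early library 5. The mean was 15.6 ± 8.1 in early and 58.3 ± 25.9 in late CCH (SD, n = 5 each). This is a log2FC of 1.89 ± 0.44 (SE), with a 95% confidence interval of 0.94 to 2.84 and a BY-adjusted p of 0.140 in limma. The adjusted p was 0.0140 with BH adjustment and 0.00465 with DESeq2, and 0.173 to 0.443 when single libraries were left out.

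TGFB3 encodes the isoform known from palate closure and from wounds. Its values were 7.62, 4.65, 16.3, 26.8 and 10.7 in early and 77.6, 43.8, 114, 44 and 17.8 in late libraries 1 to 5. The first 4 late libraries lay above all early libraries, and late library 5 lay between early libraries 3 and 4. The mean was 13.2 ± 8.72 in early and 59.5 ± 37.3 in late CCH (SD, n = 5 each). The log2FC of 2.06 ± 0.54 (SE) was the highest of the 9 genes, with a 95% confidence interval of 0.89 to 3.23 and a BY-adjusted p of 0.237 in limma. Its adjusted p was 0.0237 with BH adjustment and 0.0129 with DESeq2, and 0.134 to 0.568 without single libraries.

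TGFB2 and TGFB3 had few reads, 82 and 75 over the 5 early libraries and 292 and 302 over the 5 late ones. If reads were independent molecules, counting alone would give the early values a coefficient of variation of 24.7% for TGFB2 and 25.8% for TGFB3, and the observed ones were 51.9% and 66%. For TGFBR2, the gene with the most reads, the corresponding early values were 2.93% from counting and 21.6% observed.

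As the mean of TGFB1 was lower and the means of the other isoforms higher in late CCH, the share of each isoform among the reads of all 3 ligands was computed, a measure chosen after these values were seen and given here without a test. TGFB1 took 84.5%, 85.1%, 86.3%, 72.9% and 78.1% of the ligand reads in early libraries 1 to 5 and 31.7%, 44%, 41.8%, 38.6% and 69.9% in late libraries 1 to 5. The share was thus lower in every late library than in any early one, but late library 5 and early library 4 were close, with 95% Wilson intervals of 62.5% to 76.5% and 65.9% to 78.9% that overlap and cover counting error only. The mean share of TGFB1 was 81.4% ± 5.71 in early and 45.2% ± 14.6 in late CCH (SD, n = 5 each). TGFB2 took 9.87% ± 4.44 in early and 28% ± 10.7 in late CCH, and TGFB3 took 8.74% ± 6.43 and 26.8% ± 12.2. Late library 3 was richest in TGFB3, with 43.2% of its ligand reads, and late library 4 in TGFB2, with 40.1%. These shares rest on 134 to 207 reads per early and 163 to 273 reads per late library. The summed normalized read count of the 3 ligands was 156 ± 27.3 in early and 209 ± 45.3 in late CCH, with overlapping ranges of 125 to 197 and 160 to 264.

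**Figure D3:**
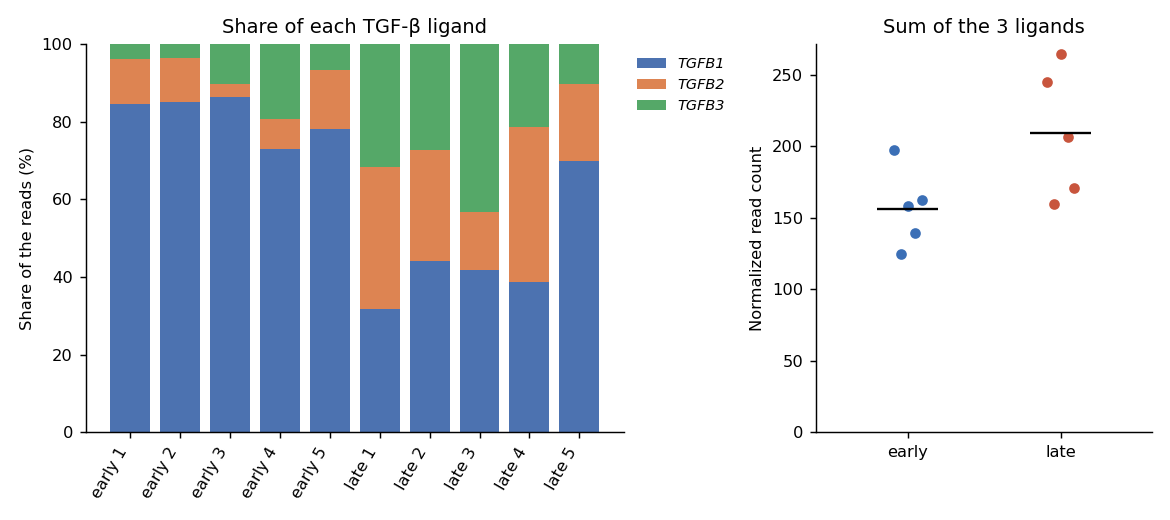
Left, the share of TGFB1, TGFB2 and TGFB3 among the reads of the 3 ligands in each library (%), and right, their summed normalized read count in each library with the mean of each stage as a line. TGFB1 takes at least 72.9% in every early and at most 69.9% in every late library, while the sums of the stages overlap.

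TGFBR1, the type I receptor kinase (ALK5) that phosphorylates SMAD2 and SMAD3, was the gene with the smallest p. Its normalized read counts were 215, 281, 259.6, 259 and 263 in early and 169, 127, 139, 131 and 104 in late libraries 1 to 5. All late values lay below all early values, and 4 of the early libraries lay within a narrow band. The mean was 256 ± 24.3 in early and 134 ± 23.5 in late CCH (SD, n = 5 each), a log2FC of -0.94 ± 0.16 (SE) with a 95% confidence interval of -1.29 to -0.59. The BY-adjusted p of limma was 0.0419 (unadjusted p = 6.88e-05), so that the gene passed the adjusted p but missed the fold threshold of 1. Of all genes tested, 1.63% had a smaller p. The adjusted p lost the level of 0.05 whenever a single library was left out, with 0.0503 to 0.129 and a log2FC of -1.02 to -0.85. Over the 13 other alternatives, BH adjustment and DESeq2 included, it was 0.000135 to 0.0597 and at most 0.05 in 10. Of these, the fit without a fold threshold repeats the main adjusted p, and BH adjustment cannot give a larger one than BY. Both therefore had to pass once the main fit had. The log2FC over the 13 alternatives was -0.94 to -0.85, short of the fold threshold.

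TGFBR2, the type II receptor that binds the ligand first, was counted at 807, 1185, 943, 1045 and 1413 in early and at 1093, 637, 901, 1156 and 923 in late libraries 1 to 5. The stages overlapped almost fully, with only late library 2 below the early range. Its mean was 1079 ± 233 in early and 942 ± 202 in late CCH (SD, n = 5 each), with a log2FC of -0.20 ± 0.19 (SE), a 95% confidence interval of -0.62 to 0.22 and a BY-adjusted p of 1 in limma. A change of the size of the fold threshold lies outside this interval.

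The reads of TGFBR1 made up 19.5% ± 2.32 of those of TGFBR1 and TGFBR2 together in early CCH and 12.8% ± 2.73 in late CCH (SD, n = 5 each, 804 to 1656 reads per library). The ranges were 15.7% to 21.6% and 10.1% to 16.7%, and late library 2 and early library 5 were the ones that overlapped. This share was also chosen after the values were seen and was not tested.

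TGFBR3 encodes betaglycan, a coreceptor without kinase activity that presents ligand, TGFB2 above all, to TGFBR2. Its values were 281, 338, 351, 188 and 365 in early and 612, 538, 507, 629 and 329 in late libraries 1 to 5. The first 4 late libraries lay above all early libraries, and late library 5 lay within the early range, as it did for TGFB3. The mean was 305 ± 72.5 in early and 523 ± 119 in late CCH (SD, n = 5 each), with a log2FC of 0.78 ± 0.22 (SE) and a BY-adjusted p of 0.330 in limma. With BH adjustment the adjusted p was 0.0330, still below the fold threshold.

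SMAD2, a receptor-regulated SMAD that carries the signal of TGF-β and activins, was counted at 326, 374, 414, 395 and 509 in early and at 324, 339.6, 413, 280.2 and 321 in late libraries 1 to 5. Late libraries 1, 4 and 5 lay below the early range and the others within it. Its log2FC was -0.26 ± 0.16 (SE) with a 95% confidence interval of -0.60 to 0.076 (limma, BY-adjusted p = 1), from a mean of 403 ± 67.5 in early and 336 ± 48.4 in late CCH (SD, n = 5 each).

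SMAD3, the other receptor-regulated SMAD of this branch and the one that binds DNA directly, was hardly counted. Its normalized read counts were 0.952, 5.58, 0.905, 3.15 and 0 in early and 8.95, 6.66, 3.87, 22.5 and 14.7 in late libraries 1 to 5, from 12 reads in all early and 56 reads in all late libraries. A count of 0 allows up to 3 reads, which is a value of 2.36 to 3.22 depending on the library, and early libraries 1, 3 and 5 were at or under this limit. Late libraries 1, 2, 4 and 5 lay above all early libraries and late library 3 did not. SMAD2 had 2177 early and 1689 late reads, so that the reads counted for the receptor-regulated pair were nearly all from SMAD2. Whether SMAD3 had few transcripts or a 3′ end outside the annotation was not tested. Without the filter on low values limma gave SMAD3 a log2FC of 2.08 with a BY-adjusted p of 0.936.

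SMAD4, the common partner that joins the SMADs of both the TGF-β and the bone morphogenetic protein (BMP) branch, had values of 131, 133, 155, 189 and 185 in early and 199, 204, 296, 294 and 167 in late libraries 1 to 5. All late libraries but the fifth lay above the early range. Its mean was 159 ± 27.4 in early and 232 ± 59.6 in late CCH (SD, n = 5 each), with a log2FC of 0.53 ± 0.20 (SE) and a BY-adjusted p of 0.946 in limma (unadjusted p = 0.0217). SMAD4 took 28.2% ± 2.51 of the reads of SMAD2 and SMAD4 together in early and 40.5% ± 6.56 in late CCH (SD, n = 5 each). The ranges of this share, which was chosen after the values were seen and was not tested, were 26.2% to 32.4% and 34.2% to 51.2% and did not overlap.

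SMAD7, an inhibitory SMAD that the pathway induces and that leads TGFBR1 to degradation, had values of 40.9, 52.1, 53.4, 74.8 and 37.6 in early and 90.5, 59.9, 71.7, 81.8 and 53.5 in late libraries 1 to 5. Late libraries 1 and 4 lay above the early range and the others within it. The log2FC was 0.47 ± 0.25 (SE) with a 95% confidence interval of -0.063 to 1.01 (limma, BY-adjusted p = 1), with means of 51.8 ± 14.6 and 71.5 ± 15.2 (SD, n = 5 each).

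Late library 5 had the lowest late value of TGFB2, TGFB3, TGFBR1, TGFBR3, SMAD4 and SMAD7 and the highest of TGFB1. Each of the 9 genes kept the direction of its difference under every alternative in which it was tested, including all 10 fits without a single library. Alternatives that change only the filter, the adjustment, the fold threshold or the moderation reuse the same log2FC, so their direction could not differ.

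Around these genes, 7 further lists of the wider pathway were examined, with 88 symbols listed, 85 analysed and 69 tested. CCN1 and CCN2 are newer symbols of CYR61 and CTGF, which stand in the same list and were tested, and RUNX3 was not analysed here. limma called 0 of these 69 genes in either direction, where 2.17% of all genes tested were called. At an unadjusted p of at most 0.05, 12 had a higher and 9 a lower level in late CCH (15.6% and 15.3% of all genes tested). With BH adjustment 2 were called higher (ACVRL1 and NEDD4L) and 3 lower (ACVR1B, ID1 and POSTN), where 5.53% and 3.52% of all genes were. edgeR called none in either direction, beside 1.43% of all genes. DESeq2 called 2 higher and 2 lower, beside 3.88% and 2.67% of all genes. All late values lay above all early values for 6 of the 69 genes and below them for 3, beside 5.91% and 6.05% of all genes tested. The median log2FC of the 69 genes was 0.089.

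**Figure D4:**
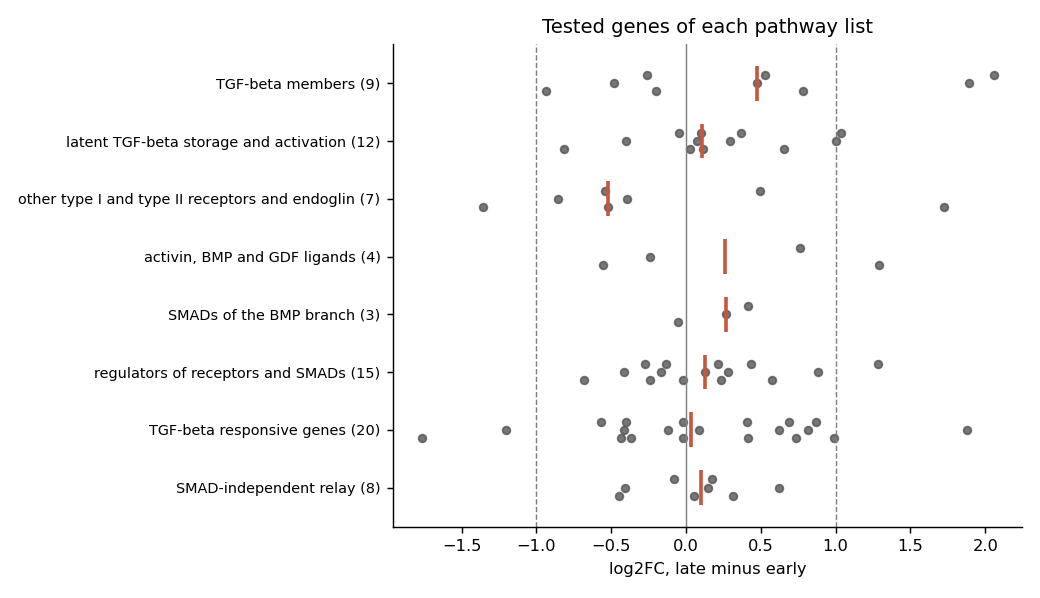
log2FC (late minus early) of each tested gene of the TGF-β genes and of the 7 further lists, with the number of genes tested in brackets, the median of each list as a red line and dashed lines at the threshold of 1 in either direction. The medians lie between -0.52 for the other receptors and 0.47 for the TGF-β genes, and most genes lie between the dashed lines.

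Of the 12 tested genes that store and activate latent TGF-β, 9 had a positive and 3 a negative log2FC, with a median of 0.11. LTBP3, a latent TGF-β binding protein, was counted at 38.4 ± 11.7 in early and 76.7 ± 23.3 in late CCH (SD, n = 5 each), with all late above all early values and a log2FC of 1.00 ± 0.31 (SE, limma, BY-adjusted p = 0.461). BGN, the matrix proteoglycan biglycan, had a log2FC of 1.04 ± 0.43 with overlapping stages, which was 0.62 without early library 3. FURIN, the protease that cleaves the ligand precursors, had values of 717, 1001, 494, 904 and 624 in early and 485, 469, 418, 253 and 489 in late libraries 1 to 5. All its late values lay below all early values, with a log2FC of -0.82 ± 0.23 (SE, limma, BY-adjusted p = 0.322). ITGAV, the αv chain of the integrins that release active TGF-β, had a log2FC of -0.40 ± 0.21. Its partners ITGB6 and ITGB8 did not pass the filter, with means of 1.81 and 9.41 in early and 1.22 and 8.41 in late CCH.

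Among the other receptors, 2 of 7 tested had a positive and 5 a negative log2FC, and the median was -0.52. ACVRL1 (ALK1), a type I receptor known from endothelium, had values of 22.8, 41.9, 22.6, 18.9 and 9.66 in early and 61.6, 79.9, 82.3, 74.6 and 63 in late libraries 1 to 5. All late values lay above all early values, with means of 23.2 ± 11.7 and 72.3 ± 9.55 (SD, n = 5 each) and a log2FC of 1.73 ± 0.34 (SE). Its BY-adjusted p in limma was 0.0659. Without single libraries it was 0.0304 to 0.207, with a log2FC of 1.47 to 1.97, and the gene was called in 1 of these 10 fits, the one without early library 2. ENG, endoglin, the coreceptor that works with ACVRL1, had a log2FC of 0.49 ± 0.32 with overlapping stages. The endothelial marker list stands beside this with 5 of 7 genes higher in late CCH and sums of 521 to 916 in early and 591 to 1252 in late libraries, and its part in the values of ACVRL1 was not tested.

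ACVR1B (ALK4), the activin type I receptor that also phosphorylates SMAD2 and SMAD3, had values of 187, 269.8, 153, 114 and 192 in early and 75.6, 122, 60, 35.8 and 73.4 in late libraries 1 to 5. Only late library 2 reached into the early range. Its log2FC of -1.36 ± 0.31 (SE) had an adjusted p of 0.133 in limma, 0.0133 with BH adjustment and 0.0111 with DESeq2. BMPR1A, a BMP type I receptor, had a log2FC of -0.85 ± 0.30 (limma, BY-adjusted p = 0.721).

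The type I receptors were also set against each other as shares of the reads of all 7 type I receptor genes (300 to 837 reads per library), again chosen after the values were seen and without a test. TGFBR1 took 44.3% ± 6.07 in early and 37.3% ± 5.52 in late CCH and was the largest part in all 10 libraries, although ACVR1B was close in early library 2, with 34.6% beside 36.1%, and in late library 2, with 28.5% beside 29.8%. ACVRL1 took 3.85% ± 1.35 in early and 20.3% ± 3.82 in late CCH, with ranges of 1.69% to 5.38% and 15% to 25%. ACVR1B took 30.8% ± 5.54 in early and 19.9% ± 6.55 in late CCH (SD, n = 5 each for all shares), with overlapping ranges.

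**Figure D5:**
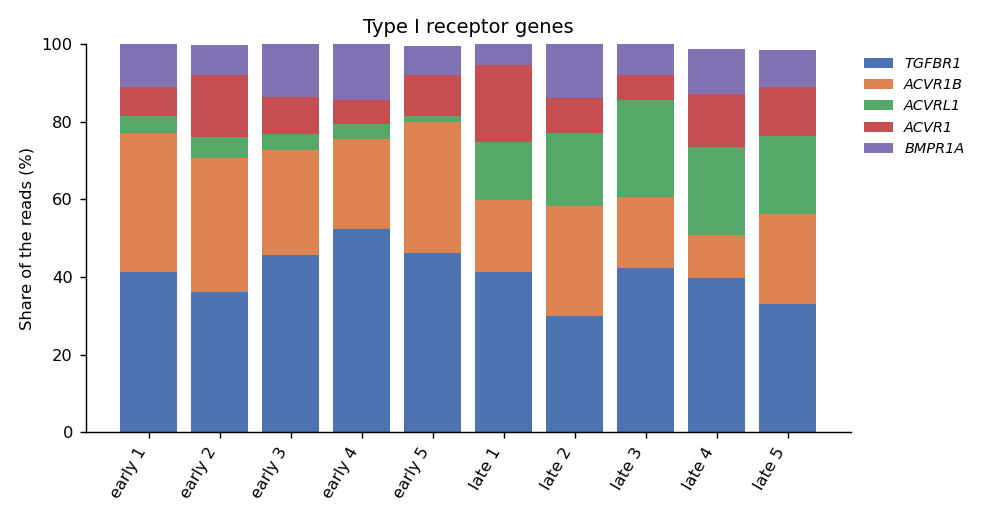
Share (%) of 5 type I receptor genes among the reads of all 7 in each library, where the gap to 100% in some libraries is ACVR1C and BMPR1B, which did not pass the filter and are not drawn. The band of ACVRL1 is 1.69% to 5.38% in the early and 15% to 25% in the late libraries, and the TGFBR1 band is 36.1% to 52.4% and 29.8% to 42.4%.

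Of 11 activin, BMP and GDF ligands only 4 were tested. INHBA, the activin A subunit, had a log2FC of 1.29 ± 0.54 (SE, limma, BY-adjusted p = 1), with an early mean of 102 ± 111 and a late mean of 199 ± 77 (SD, n = 5 each). Early library 2 was far above the other early libraries at 299 and late library 3 far below the other late ones at 62. BMP4 had a log2FC of 0.76 ± 0.41 and BMP2 one of -0.24 ± 0.51. That of INHBB, -0.56 ± 0.90, turned positive in edgeR (0.16) and DESeq2 (0.15). The 3 tested SMADs of the BMP branch were SMAD5 (log2FC 0.41 ± 0.20), SMAD6 (0.27 ± 0.52) and SMAD1 (-0.052 ± 0.36). The log2FC of SMAD1 turned to 0.035 when libraries were scaled by their column total.

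Regulators of receptors and SMADs were split, with 8 positive and 7 negative log2FC values among 15 tested. NEDD4L, a ubiquitin ligase that turns over activated SMAD2 and SMAD3, had values of 12.4, 34.4, 17.2, 33.1 and 17.2 in early and 59.7, 51.4, 40.7, 58.3 and 56.7 in late libraries 1 to 5. All late values lay above all early values, with a log2FC of 1.28 ± 0.32 (SE, limma, BY-adjusted p = 0.197). The same held for RNF111 (Arkadia), a ubiquitin ligase that removes inhibitors of the pathway such as SMAD7, at 42.9 ± 14.4 in early and 76.9 ± 9.33 in late CCH (SD, n = 5 each), with a log2FC of 0.88 ± 0.26 (SE, limma, BY-adjusted p = 0.359). TGIF1, a transcriptional corepressor of SMADs, had a log2FC of -0.68 ± 0.31, and STRAP, which works with SMAD7 at the receptor, one of -0.42 ± 0.33.

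Among 20 tested genes known to respond to TGF-β, 10 had a positive and 10 a negative log2FC, with a median of 0.034. ID1, an inhibitor of differentiation that BMP signals induce most strongly, had values of 173, 179, 335, 247 and 126 in early and 55.7, 111, 63, 25.6 and 66.1 in late libraries 1 to 5. All late values lay below all early values, with a log2FC of -1.77 ± 0.36 (SE) and a BY-adjusted p of 0.0779 in limma, 0.00779 with BH adjustment and 0.000853 with DESeq2. POSTN, the matrix protein periostin, had a log2FC of -1.20 ± 0.38 (SE, limma, BY-adjusted p = 0.489), with 930 ± 464 in early against 382 ± 139 in late CCH (SD, n = 5 each). CYR61, a matricellular protein, had a log2FC of 0.99 ± 0.52 with wide and overlapping stages, which was 0.60 without early library 3. Beside these, 3 of 9 fibroblast and matrix markers had a higher and 6 a lower level in late CCH, with sums of 8465 to 63783 in early and 11829 to 39003 in late libraries.

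Of the SMAD-independent relay, 8 of 8 genes were tested, with a median log2FC of 0.10. ROCK1, a kinase downstream of RHOA, had a log2FC of 0.62 ± 0.14 (SE, limma, BY-adjusted p = 0.110), with 510 ± 61.2 in early and 786 ± 94.1 in late CCH (SD, n = 5 each) and all late above all early values. RHOA itself, the small GTPase, lay the other way with a log2FC of -0.45 ± 0.12 (SE, limma, BY-adjusted p = 0.231) and all late below all early values. TAB2 and TAB1, partners of the kinase MAP3K7 (TAK1), had log2FC values of 0.32 ± 0.15 and -0.41 ± 0.31.

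The genes whose log2(value + 1) followed each of the 9 genes most closely over the 10 libraries were found by Pearson correlation, given as a description without a p. Only genes that were tested and whose symbols do not start with LOC were compared. The 10 points share the split into stages and the scaling of each library, so that a difference between stages enters every coefficient. TGFBR1 had the closest companions, QRICH1 (r = 0.986), GTF3A (r = 0.974), a factor for 5S ribosomal RNA genes, and CCDC92 (r = 0.956). TGFB1 was followed most closely by ELMO1 (r = 0.943), a regulator of cell migration and engulfment, and by PHPT1 and CDCA7. For TGFB2 the closest genes were PPFIA4 (r = 0.958), LRPAP1 and SSPN, and for TGFB3 they were CELF1 (r = 0.958), ATAT1 and TTF1.

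TGFBR2 had the loosest companions, VPS4B (r = 0.903), ATP7A and PIGO. TGFBR3 was followed by SNX11 (r = 0.947), PARP11 and CDV3, SMAD2 by NSUN3 (r = 0.948), MAP4K4 and ENTPD5, SMAD4 by NF2 (r = 0.956), NUB1 and TMEM57, and SMAD7 by SRP14 (r = 0.962), GOLPH3 and TCF7 (r = 0.939). TCF7, a transcription factor of T cells, had a log2FC of 2.99 (limma, BY-adjusted p = 0.322), while SRP14 and GOLPH3 had log2FC values of 0.24 and 0.25. No gene among the 10 was a closest companion of another.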

How the data were processed

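RNA of 5 early and 5 late CCH samples (FFPE tissue of different dogs) had been sequenced with QuantSeq 3′. According to the submitters' processing notes and the study's methods, the authors trimmed reads with cutadapt, aligned them with STAR to CanFam3.1 and counted them per gene with featureCounts, counting unassigned reads again on genes extended downstream and sharing multi-mapped reads evenly. Versions are not given in the sources used here. The deposited unit is a normalized signal, read counts divided by the authors by 1 size factor per library. Dividing by the value of 1 read gave whole reads for 100% of 166096 values above 0 (within 0.001 reads). Sharing multi-mapped reads gives fractions, so the counts may have been rounded before the size factor was applied. The study's methods do not describe such rounding. The table has 21 columns of values, of which 11 match no sample used here and were left out. Column names show the stage but not the sample, so library numbers are only names.

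The 12397 genes that reached a value of 10 in 5 or more libraries were fitted with limma 3.58.1 (R 4.3.3, mean-variance trend) on log2(value + 1), without covariates, with BY adjustment over all genes tested, and calls needed an adjusted p up to 0.05 with a log2FC of 1 or more in size. The p-values of depth and DV200 come from exact two-sided permutation tests over 252 assignments. Alternatives were other scalings (TMM, column totals, recomputed size factors), pseudocounts (0.5 and 5), filters, BH adjustment, no fold threshold, edgeR 4.0.16 and DESeq2 1.42.0 on the recovered reads, robust moderation, a weight per library, and leaving out each library. The tests were tested on simulated data. The confidence intervals of log2FC come from limma and rest on the spread between libraries. The Wilson intervals of the shares and the limit of 3 reads cover counting error only. The reads carry no molecular identifiers and may be copies of a molecule.

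The genes, the further pathway lists and the marker lists were chosen with earlier results of these data known. Named beside the 10 genes are, for each tested gene, the 3 closest by correlation among tested genes whose symbols do not start with LOC. Also named, in each further list, are any called gene and otherwise the 2 genes with the highest and the 2 with the lowest log2FC. A gene that this rule names is not reported here. Gene names were looked up in the RefSeq table of the newer assembly UU_Cfam_GSD_1.0, where all 10 were found. There, non-coding RNA genes overlap TGFB2, TGFBR2, TGFBR3 and SMAD3, and a pseudogene overlaps TGFBR3. Whether strand was used in counting is not stated, so that reads of these overlaps cannot be told apart.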

Additional observations from a re-analysis of the deposited data

Results flagged for a closer look

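A library was singled out where its gap to the nearest other library of its stage, divided by the range of the stage, was above 0.71, the 95% critical value of Dixon's test for 5 samples. This was applied to 100 groups, of which 6 passed and chance would pass about 5. Early library 2 stood apart at the high end for ENG (189, next 95.3, ratio 0.762) and for INHBA (299, next 65.7, ratio 0.876). Late library 3 stood apart at the low end for INHBA (62, next 222, ratio 0.891), early library 3 for LTBP3 (18.1, next 40.2, ratio 0.758) and early library 1 for RHOA (1844, next 2206, ratio 0.813). Late library 2 had the most genes with a value of at least 10, with 12722 against 12395 in the next late library (ratio 0.818). None of the 10 TGF-β genes had such a library in either stage.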

How the results depend on the processing

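The count of called TGF-β genes stayed at 0 in each direction except with BH adjustment and with DESeq2 (2 higher each) and without a fold threshold (1 lower). Of the 7 further lists together, 1 gene was called higher with a pseudocount of 5 and with a weight per library, 2 with BH adjustment and 2 with DESeq2, and 0 to 2 without single libraries, where the 2 arose without early library 2. Lower calls there were 3 with BH adjustment and 2 with DESeq2. The cause of these moves was not tested. The sign of the log2FC turned for INHBB with edgeR (0.16) and DESeq2 (0.15) and for SMAD1 with column totals (0.035). Without single libraries the log2FC was -0.53 to 0.087 for BMP2, -1.003 to 0.28 for INHBB, -0.27 to 0.13 for SMAD1 and -0.14 to 0.51 for SMAD6. The late minus early difference in total reads was -598620 to -271922 without single libraries, and its p passed 0.05 without late library 1, 4 or 5 (0.0556, 0.0556 and 0.0635, with differences of -474020, -471951 and -444177). Over all genes the calls numbered 269, with 1121 under BH adjustment, 810 with DESeq2, 418 with a weight per library, 177 with edgeR and 49 to 260 without single libraries, the fewest without early library 5. With column totals higher calls made up 64% of all calls, against 48.7%. TGFB2 and TGFB3 were not tested under the filter of a mean of at least 50. No paired analysis was possible because no replicate number can be read from the column names and each tumor came from another dog. Among the 10 TGF-β genes SMAD3 had the fewest reads, 12 in the early libraries.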
